A study of Homo sapiens with 10 samples.

Results

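KIT, its ligand KITLG, its sister receptor PDGFRA, the transcription factors ETV1, FOXF1, HAND1 and BARX1, and the markers PRKCQ and PROM1 were followed in GIST-T1, an established human cell line from a metastatic gastrointestinal stromal tumour (GIST). These 9 genes were taken by symbol from the 58381 gene rows of the deposited tables, and all 9 were among the 15554 genes with counts high enough to test. The 4 derivative lines InsE, InsF, InsG and InsH, each with a disrupted CTCF insulator, were compared with the control line, whose genotype is given as WT, with 2 RNA-seq libraries per group. All groups share the GIST-T1 background, which has intact succinate dehydrogenase. CTCF is a DNA-binding protein that marks boundaries between chromosome loops. The labels say neither which bases were edited in each line, nor whether a line is 1 clone or its libraries are separate cultures. The p-values therefore reflect only how much these libraries varied, which may be technical.

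KIT encodes the receptor tyrosine kinase whose activating mutations drive most GISTs, and KITLG encodes the stem cell factor that binds it. The interstitial cells of Cajal, the pacemaker cells of the gut and the presumed counterpart of GIST, depend on KIT. ETV1 is an ETS-family factor that acts with FOXF1 on the GIST programme and on KIT itself, HAND1 and BARX1 are factors tied to GIST subtypes, PRKCQ (protein kinase C theta) is a diagnostic marker, and PROM1 encodes the membrane glycoprotein CD133.

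KIT was reduced in every line, and most of the genes, KIT among them, separated InsE from the mean of the other 3 lines. KIT, PRKCQ and PROM1 fell in all 4 lines. FOXF1 fell in InsF, InsG and InsH, while KITLG, ETV1, HAND1 and BARX1 fell in InsE. PDGFRA fell in InsE and rose in InsG and InsH. ETV1 and PRKCQ did not pass the test between InsE and the mean of the other 3 lines. The test was edgeR's quasi-likelihood test on expected counts (RSEM's estimated fragments per gene), with p adjusted over all genes and a threshold of 0.05. Levels are TPM, which correct for transcript length.

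Depth and identity of the libraries were as follows. Totals were 22.9 to 42.5 M (mega) expected counts in replicate 1 and 9.4 to 20.1 M in replicate 2 of the groups. The least-covered of the 9 genes was BARX1. All 6 markers of GIST and interstitial cells were tested, and their summed level was 2372 to 2612 TPM in the lines, against 3206 and 3220 TPM in control. CD34 made up most of this sum, with 1447 to 1550 TPM in the lines, against 1706 and 1710 TPM in control. KIT, ETV1 and PRKCQ are part of it too, so it is no separate result. GPR20, also in the sum, went both ways: it rose by 0.27 (log2) in InsF and InsH and fell by 0.43 in InsE. Markers of mast cells, which also carry KIT, summed to at most 0.16 TPM in any library. Markers of enteric neurons and glia summed to at most 1.69 TPM, those of endothelium to at most 0.69 TPM and those of immune cells to 3.8 to 6.67 TPM. Epithelial markers, nearly all of it KRT8 and KRT18, summed to 194 to 255 TPM in the lines, against 268 and 278 TPM in control, with KRT19 listed at 0, and their part in the results was not tested. The control libraries were closer to each other than those of any line, with a chi-square per degree of freedom of 1.39, against 6.59 to 7.69 in the lines, so the calls against control were repeated with the control libraries merged into 1, a check chosen after seeing the data, and for the 9 genes each call that this ended is given beside it.

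**Figure D1:**
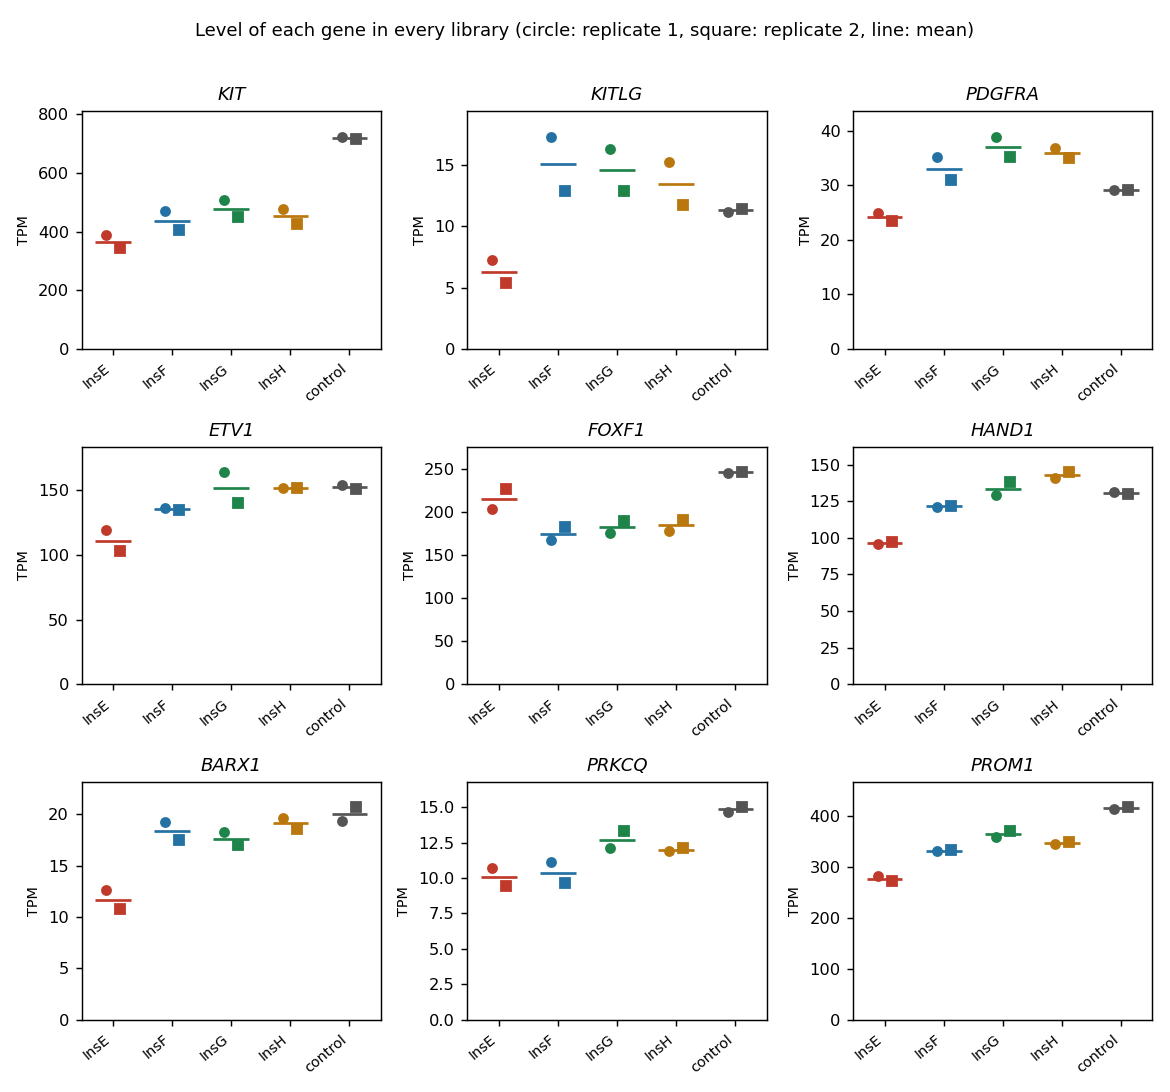
TPM of the 9 genes in every library, by line and control (circles, replicate 1; squares, replicate 2; lines, group means; each axis starts at 0). KIT lies at 344 to 507 TPM in the lines and at 716 and 724 TPM in control. InsE lies above the other lines for FOXF1, overlaps them for PRKCQ and lies below them for the remaining genes, KIT included.

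Promoter sequence is given for 3 of the genes: KIT and PRKCQ, which fell in every line, and ETV1, whose protein binds ETS motifs. RefSeq promoter windows (GRCh38.p14) were matched by symbol for 7 of the 9 genes, without FOXF1 and BARX1. Shown are the bases upstream of the RefSeq start that also lie outside the annotated gene, 5′ to 3′ on the strand of the gene, at chr4:54657707-54657917 (plus strand) for KIT, chr7:13991426-13991675 (minus strand) for ETV1 and chr10:6580647-6580896 (minus strand) for PRKCQ. Capitals mark the E-box CANNTG and the forkhead motif TGTTTAC, and the ETS core CCGGAAG was searched too, all on both strands.
KIT: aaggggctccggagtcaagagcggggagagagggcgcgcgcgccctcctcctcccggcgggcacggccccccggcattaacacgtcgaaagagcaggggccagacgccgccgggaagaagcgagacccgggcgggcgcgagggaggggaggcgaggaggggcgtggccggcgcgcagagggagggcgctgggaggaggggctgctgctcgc
ETV1: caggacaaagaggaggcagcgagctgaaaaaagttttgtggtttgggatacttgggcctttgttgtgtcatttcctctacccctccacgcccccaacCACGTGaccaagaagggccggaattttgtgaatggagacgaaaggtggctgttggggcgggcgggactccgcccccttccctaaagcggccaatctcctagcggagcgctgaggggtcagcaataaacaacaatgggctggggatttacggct
PRKCQ: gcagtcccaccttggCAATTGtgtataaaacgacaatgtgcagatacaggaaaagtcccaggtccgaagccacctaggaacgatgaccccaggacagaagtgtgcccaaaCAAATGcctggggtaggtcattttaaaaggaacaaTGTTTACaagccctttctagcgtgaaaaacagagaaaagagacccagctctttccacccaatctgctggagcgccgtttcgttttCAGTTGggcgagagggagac
None of the 3 motifs is in the KIT window, which is printed over 211 bases and is 76.3% G or C. ETV1 has 6 windows, with 0 to 2 E-boxes each, and the printed one holds 1 E-box. The PRKCQ window, at 49.2% G or C, holds 3 E-boxes and 1 forkhead motif. The ETS core was found in 1 window of these genes, that of KITLG. In all 35116 windows of 250 bases, 61.8% hold the E-box, 8.52% the ETS core and 2.98% the forkhead motif. These are matches of letters only.

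KIT (ENSG00000157404.15, chromosome 4, 54657918 to 54740715 in hg38) had 388 and 344 TPM in InsE, 469 and 407 TPM in InsF, 507 and 451 TPM in InsG, and 479 and 426 TPM in InsH, against 724 and 716 TPM in control. Every library of the lines lay below both control libraries. In order of depth of the reduction, KIT fell by 0.95 ± 0.06 (log2, SE) in InsE, by 0.79 ± 0.06 in InsF, by 0.76 ± 0.06 in InsH and by 0.68 ± 0.06 in InsG, with edgeR adjusted p of 1.04e-05, 1.82e-05, 3.25e-05 and 6.04e-05 in the same order. On the scale of the counts this left 0.519 of the control level in InsE and 0.624 in InsG. Each of these 4 calls held in all alternatives, including without any 1 library and with the control libraries merged, where the adjusted p was 0.00044 to 0.00192.

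Even so reduced, KIT remained an abundant transcript. By TPM it ranked 340th and 392nd of all genes in InsE, between 265th and 348th in the other lines, and 188th in both control libraries. Among the lines the levels ran from InsE through InsF and InsH to InsG, and the test for any difference among the 4 missed the threshold (edgeR adjusted p = 0.0515). Of the 6 pairs of lines, InsE against InsG differed, at -0.27 ± 0.06 (log2, SE; edgeR adjusted p = 0.0122), and the other 5 missed the threshold. InsE lay below both InsF libraries without overlap, at -0.15 ± 0.06 (edgeR adjusted p = 0.0974), while InsF overlapped InsH, and InsH overlapped InsG. InsE lay 0.20 ± 0.05 below the mean of the other 3 lines on the log2 scale (edgeR adjusted p = 0.0132, and 0.157 without InsE replicate 2). In bulk RNA, fewer cells that carry a transcript and less of it per cell cannot be told apart.

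KITLG (chromosome 12, 88492793 to 88580851, minus strand), which a cell can present on its own membrane or shed, was expressed in these cells at a far lower level than its receptor. It had 7.21 and 5.37 TPM in InsE, 17.3 and 12.9 TPM in InsF, 16.3 and 12.9 TPM in InsG, and 15.2 and 11.7 TPM in InsH, against 11.2 and 11.4 TPM in control. By TPM, InsE libraries lay below control and those of the other lines above it. KITLG fell by 0.80 ± 0.16 (log2, SE) in InsE (edgeR adjusted p = 0.00588), while InsF stood at 0.36 ± 0.15, InsG at 0.29 ± 0.15 and InsH at 0.19 ± 0.15, which did not pass the test. The difference between the lines was itself significant: InsE lay 1.08 ± 0.14 (log2, SE) below the mean of the other 3 (edgeR adjusted p = 0.000479), and differed from each of them. In every line replicate 1 was the higher of the pair, by a margin that the control libraries did not show. CPM are counts scaled by library size and by edgeR's TMM factors. Within replicate 1 the log2 ratio of CPM to control was -0.65 in InsE and 0.36 to 0.53 in the other lines. Within replicate 2 it was -1.05 in InsE and -0.01 to 0.14 in the others.

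PDGFRA, the receptor gene mutated in a part of the GISTs without KIT mutation, lies near KIT, its start 429 kb before that of KIT (chromosome 4, 54229097 to 54298247). It had 25 and 23.5 TPM in InsE, 35.2 and 30.9 TPM in InsF, 38.9 and 35.2 TPM in InsG, and 36.8 and 35 TPM in InsH, against 29.1 TPM in both control libraries. InsE lay below control and the other lines above it. The changes were small: on the log2 scale InsE stood at -0.20, InsF at 0.12, InsG at 0.32 and InsH at 0.20 (SE 0.05 each), with edgeR adjusted p of 0.0235, 0.137, 0.00315 and 0.0298. The calls in InsE and InsH were lost without any 1 of their own or the control libraries, with adjusted p up to 0.154 and 0.2, and with the control libraries merged (0.129 and 0.153). InsH was not called by DESeq2 either (0.0773), and InsG held with merged controls at 0.0367. By limma on log2(TPM + 1) no line was called (adjusted p = 0.11 in InsE, 0.0565 in InsG and 0.0839 in InsH). The contrast between lines was firmer, since InsE lay 0.42 ± 0.05 (log2, SE) below the mean of the other lines (edgeR adjusted p = 0.000208).

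Levels of KIT were also set against those of its partner genes within each library. The ratio of KIT to PDGFRA, both in TPM, was 15.5 and 14.7 in the InsE libraries, 13.3 and 13.2 in those of InsF, 13 and 12.8 in those of InsG and 13 and 12.2 in those of InsH, against 24.9 and 24.6 in control. All 8 ratios in the lines lay below both control ratios. For KIT to KITLG the ratio was 53.8 and 64 in the InsE libraries, 27.1 and 31.6 in those of InsF, 31.1 and 35 in those of InsG and 31.4 and 36.5 in those of InsH, against 64.7 and 62.5 in control. Here InsE overlapped control and the other lines lay below it. The ratio of KIT to ANO1, the chloride channel gene whose product DOG1 is a GIST marker, was 1.19 to 1.42 in the lines and 1.39 and 1.41 in control, where InsE and InsH lay below both control values.

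**Figure D2:**
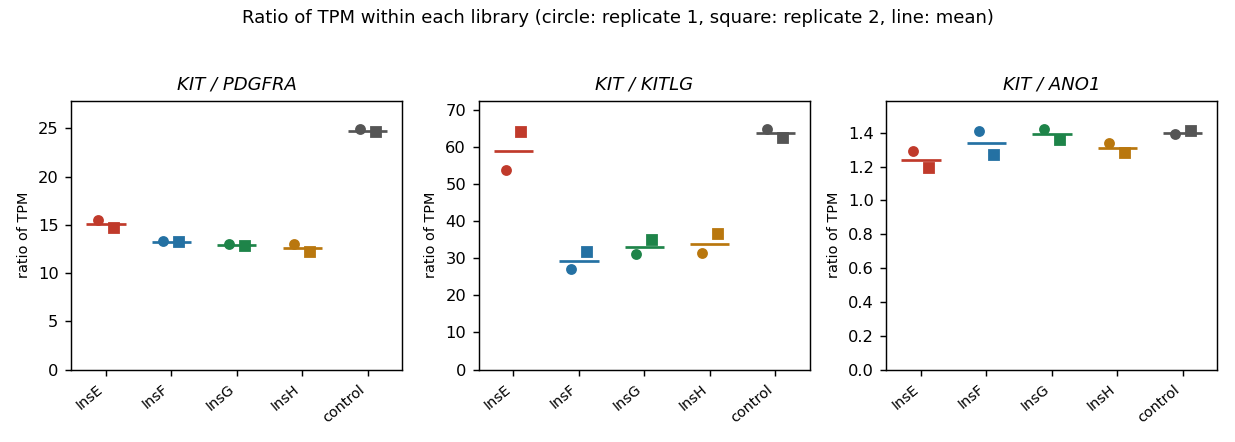
Ratio of the TPM of KIT to that of PDGFRA, KITLG and ANO1 in every library, by line and control (circles, replicate 1; squares, replicate 2; lines, group means). KIT to PDGFRA is 12.2 to 15.5 in the lines and 24.6 and 24.9 in control, and KIT to KITLG sets InsE beside control.

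Of the transcription factors, ETV1 (chromosome 7, 13891228 to 13991425, minus strand) changed little. It had 119 and 103 TPM in InsE, 136 and 135 TPM in InsF, 164 and 140 TPM in InsG, and 152 TPM in both InsH libraries, against 154 and 151 TPM in control. InsE and InsF lay below control, and the other lines overlapped it. On counts ETV1 fell by 0.27 ± 0.07 (log2, SE) in InsE (edgeR adjusted p = 0.0281), a call lost without InsE replicate 2 (0.159), without either control library (0.136 and 0.151) and with these merged (0.14). InsF stood at -0.22 ± 0.07, InsH at -0.12 ± 0.07 and InsG at 0.03 ± 0.07, none past the test. The InsG value turned to -0.01 on the log2(TPM + 1) scale. On that scale InsE was lower by more, at -0.45 (limma adjusted p = 0.0196), and the transcript length that RSEM weights by its isoform estimates moved with it: 4071 and 4078 bases in InsE and 3353 to 3940 bases in the other lines, against 3583 and 3683 bases in control. Its part in the difference was not tested. Between lines, InsE stood at -0.17 ± 0.06 (log2, SE) from the mean of the others on counts, not called (edgeR adjusted p = 0.0812). On log2(TPM + 1) this contrast was called, at -0.39 (limma adjusted p = 0.0117). The test for any difference among the lines missed the threshold (edgeR adjusted p = 0.0762). On counts InsE differed from InsG (-0.30 ± 0.08, edgeR adjusted p = 0.0245), but not from InsF (-0.05 ± 0.08, 0.695) or InsH (-0.15 ± 0.08, 0.229).

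FOXF1 (chromosome 16, 86510527 to 86515418), a forkhead factor of gut mesenchyme, was lowest in InsF, InsG and InsH. FOXF1 had 203 and 226 TPM in InsE, 167 and 182 TPM in InsF, 175 and 189 TPM in InsG, and 178 and 190 TPM in InsH, against 245 and 246 TPM in control. Every library of the lines lay below control, and those of InsE lay nearest to it. Its log2 change was -0.56 in InsF (edgeR adjusted p = 0.00292), -0.52 in InsG (0.00514) and -0.50 in InsH (0.00691), while InsE stood at -0.19 (0.19), each with an SE of 0.10. The calls in InsG and InsH narrowly missed the threshold without their own replicate 1 (0.052 and 0.0551). InsE lay 0.34 ± 0.08 (log2, SE) above the mean of the other lines (edgeR adjusted p = 0.0118, and 0.117 without InsE replicate 2). For FOXF1 the test for any difference among the 4 lines missed the threshold (edgeR adjusted p = 0.0693), as did InsE against InsH (0.0628). The summed level of 7 smooth muscle markers was 262 to 282 TPM in InsE, against 252 to 256 TPM in control. It was 591 to 619 TPM in InsF, 427 to 457 TPM in InsG and 475 to 496 TPM in InsH. ACTA2 made up most of the sum. Of the 5 tested, ACTA2, TAGLN, ACTG2 and MYOCD rose in each of InsF, InsG and InsH, where 10.9%, 9.86% and 8.95% of all genes were called higher. MYOCD was very low, at 0.15 to 0.48 TPM in these lines and 0.02 TPM in both control libraries. TAGLN fell in InsE (edgeR adjusted p = 0.0332), where its libraries differed, with 3.32 and 6.76 TPM against 7.83 and 7.61 TPM in control. MYH11, the smooth muscle myosin, was at 0.35 TPM or lower in every library and was called in no line. DES was listed at 0 in every library and CNN1 was at most 0.22 TPM. The part of these markers in the result was not tested.

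HAND1 and BARX1 fell in InsE. HAND1, a helix-loop-helix factor (chromosome 5, 154474972 to 154478264, minus strand), had 95.6 and 97 TPM in InsE, 121 and 122 TPM in InsF, 129 and 138 TPM in InsG, and 141 and 145 TPM in InsH, against 131 and 130 TPM in control. It fell by 0.43 ± 0.07 (log2, SE) in InsE (edgeR adjusted p = 0.00186) and lay within 0.17 of control in the other lines, where no call was made. InsE differed from each other line, and from their mean by -0.37 ± 0.06 (log2, SE; edgeR adjusted p = 0.0015). BARX1, a homeobox factor of stomach mesenchyme (chromosome 9, 93951622 to 93955372, minus strand), had 12.6 and 10.8 TPM in InsE, 19.3 and 17.5 TPM in InsF, 18.3 and 17 TPM in InsG, and 19.7 and 18.6 TPM in InsH, against 19.4 and 20.7 TPM in control. These values rest on 87 counts in the shallower InsE library. BARX1 fell by 0.69 ± 0.09 (log2, SE) in InsE (edgeR adjusted p = 0.000611) and lay 0.54 ± 0.08 below the mean of the other lines (0.000959). The mean of the 4 lines was lower by 0.29 (edgeR adjusted p = 0.0101), a call lost without either control library (0.0539 and 0.144), with these merged (0.0782), in DESeq2 (0.135) and by limma on log2(TPM + 1) (0.0619).

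By TPM, FOXF1 was higher in InsE than in the other lines and HAND1 was lower. The ratio of FOXF1 to HAND1 within each library, in TPM, restates these values and is no further result. It was 2.12 and 2.33 in the InsE libraries, 1.38 and 1.49 in those of InsF, 1.36 and 1.38 in those of InsG and 1.27 and 1.3 in those of InsH, against 1.86 and 1.9 in control. InsE lay above control and the other lines below it.

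The markers PRKCQ and PROM1 fell with KIT in all 4 lines. PROM1 (chromosome 4, 15963076 to 16084378, far from KIT on the same chromosome) had 282 and 272 TPM in InsE, 331 and 333 TPM in InsF, 358 and 370 TPM in InsG, and 344 and 348 TPM in InsH, against 414 and 417 TPM in control. No library of the lines reached the control level. On the log2 scale PROM1 fell by 0.57 (InsE), 0.35 (InsF), 0.25 (InsG) and 0.30 (InsH), with an SE of 0.05 each and edgeR adjusted p of 5.16e-05, 0.000863, 0.00607 and 0.00206. The InsG call was lost without a control library (0.0709 and 0.052) and with these merged (0.0562). InsE lay 0.27 ± 0.04 (log2, SE) below the mean of the other lines (edgeR adjusted p = 0.00114), and no pair of the other lines passed the test (edgeR adjusted p = 0.496 for InsF against InsG, 1 for InsF against InsH and 0.865 for InsG against InsH), although their TPM ranges did not overlap.

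PRKCQ (chromosome 10, 6427143 to 6580301, minus strand) had 10.7 and 9.46 TPM in InsE, 11.1 and 9.66 TPM in InsF, 12.1 and 13.3 TPM in InsG, and 11.9 and 12.1 TPM in InsH, against 14.7 and 15 TPM in control. All line libraries lay below control. Its log2 change with SE was -0.55 ± 0.09 (InsE), -0.60 ± 0.09 (InsF), -0.34 ± 0.08 (InsG) and -0.39 ± 0.09 (InsH), with edgeR adjusted p of 0.00198, 0.00115, 0.0215 and 0.0129. InsE and InsF lay lowest, and the test for any difference among the lines missed the threshold (edgeR adjusted p = 0.171). The InsG and InsH calls were lost without their own replicate 1 (0.226 and 0.0981), without either control library (0.114 and 0.116 for InsG, 0.0753 and 0.0809 for InsH), with these merged (0.103 and 0.0687), in DESeq2 (0.105 and 0.0582) and by limma on log2(TPM + 1) (0.248 and 0.137).

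**Figure D3:**
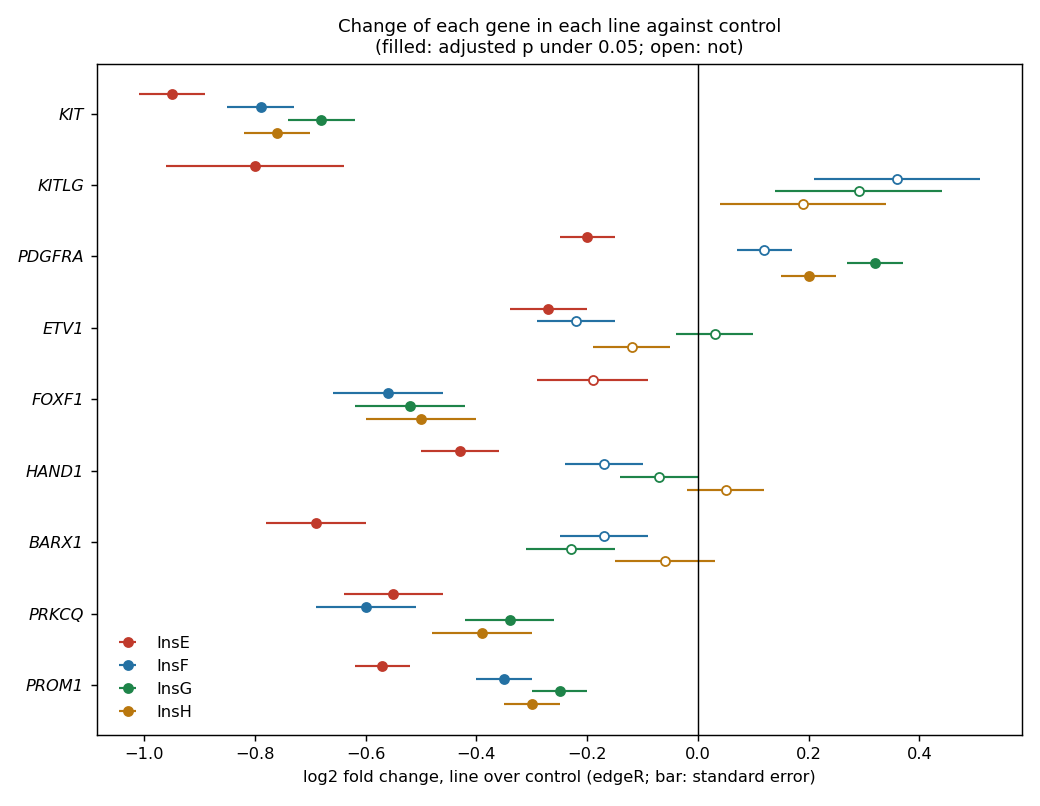
Log2 fold change of each gene in InsE, InsF, InsG and InsH against control, with its standard error (edgeR; filled points have an adjusted p under 0.05). KIT lies between -0.95 and -0.68 in all 4 lines, while KITLG and PDGFRA show InsE below 0 and the other lines above it. FOXF1 lies below 0 in all 4 lines, with InsE nearest to 0.

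Of the 9 genes, 8 fell in InsE, 4 fell in InsF, and 4 fell and 1 rose in both InsG and InsH. Across all tested genes, the share called lower was 12.4% (InsE), 11.3% (InsF), 10.5% (InsG) and 9.46% (InsH), the share called higher was 10.8%, 10.9%, 9.86% and 8.95%, and the share called in either direction was 23.2%, 22.3%, 20.3% and 18.4%, each in that order. The median log2 change of the 9 genes was -0.55 (InsE), -0.22 (InsF), -0.23 (InsG) and -0.12 (InsH), against 0.01 over all genes in each line. For the mean of the 4 lines, 5 of the 9 fell, with 27.6% of all genes called, 14.5% lower and 13.1% higher. The comparisons share the control libraries. Between InsE and the mean of the other lines, which does not use them, 6 were lower and 1 was higher, with 24.2% of all genes called, 12.8% lower and 11.4% higher. Against single lines, InsE differed in 6 of the 9 from InsF, in 8 from InsG and in 5 from InsH, with 18.6%, 17.3% and 14.5% of all genes called. No gene of the 9 was called between InsF, InsG and InsH, where 0.174% of all genes were called between InsF and InsG, 0.0707% between InsF and InsH and 0% between InsG and InsH. At an unadjusted p under 0.05, edgeR picked 3, 2 and 0 of the 9 in these pairs, and 1608, 586 and 608 of all genes. No other tool was run on them. The 9 genes were chosen with earlier results of these data known, so their counts describe these genes and no wider programme.

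The genes closest to the 9 in sequence or as ligands were then read for the same lines. Of 11 ligands and close receptor relatives of KIT and PDGFRA, 5 were tested, and for the mean of the lines, where 27.6% of all genes were called, 1 rose and 1 fell. PDGFA, a ligand of PDGFRA, had 3.22 to 5.79 TPM in the lines, against 6.73 and 7.36 TPM in control, and fell by 0.83 ± 0.09 (log2, SE; edgeR adjusted p = 0.000136). PDGFRB, the second PDGF receptor, rose by 0.47 ± 0.07 (0.00134), with 10.5 to 18.3 TPM in the lines, against 9.04 and 10.5 TPM in control. The next neighbour of KIT with this kind of kinase, KDR, was at 0.035 TPM or lower on average in each group and too low to test. Of 13 paralogues of the 9 genes, 10 were tested, 1 rose and 3 fell. The ETS factors ETV4 (-0.44 ± 0.09, edgeR adjusted p = 0.00647) and ETV5 (-0.15 ± 0.03, 0.0105) and the forkhead factor FOXF2 (-0.41 ± 0.08, 0.00563) were the lower ones. The ETV4 and ETV5 calls were lost without either control library, and the FOXF2 call was lost without control replicate 1. With the control libraries merged, ETV4 (0.063) and ETV5 (0.108) were not called. PRKCA (0.18 ± 0.06, 0.0398) did not hold without most single libraries, nor with merged controls (0.212). By line, PRKCA rose by 0.46 in InsF (edgeR adjusted p = 0.0014) and by 0.24 in InsH (0.0421). Its InsF call held without any 1 library, and its InsH call did not. ETV5 stood at 134 to 164 TPM on average in the lines and 158 TPM in control, a level near that of ETV1. HAND2, the paralogue of HAND1, stood at 42.4 to 48.7 TPM in the lines and 37.9 TPM in control. HAND2 rose by 0.40 in InsE (edgeR adjusted p = 0.016), where HAND1 fell, and was not called in the other lines or their mean.

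Of 42 tested genes of KIT signalling, 15 passed the test for the mean of the lines, 2 higher and 13 lower. Their median log2 change was -0.07, against 0.01 over all genes. The list holds both genes that pass the signal on and genes that restrain it. Of the restraining genes, CBL, SOCS1, SOCS6 and NF1 were among the lower ones, and SH2B3 was higher. Over all genes 13.1% were higher and 14.5% lower. By line, InsE had 1 higher and 13 lower, InsF 1 and 12, InsG 2 and 11, and InsH 1 and 10, where the share of all genes called lower was 12.4%, 11.3%, 10.5% and 9.46% in that order. The largest change was that of LYN, a SRC-family kinase that binds activated KIT, with 3.67 to 6.85 TPM in the lines, against 11.3 and 10.3 TPM in control (-1.21 ± 0.08, edgeR adjusted p = 1.03e-05). FYN, of the same family, fell by 0.82 ± 0.09 on counts (0.000176), although its TPM of 8.62 to 17.9 in the lines overlapped the 15.4 and 16.6 TPM in control. CISH, a feedback gene of STAT5, fell by 0.70 ± 0.13 (0.00361, and 0.0822 without control replicate 1), and JAK2 stood at 0.49 ± 0.16 (0.0449), a call that 6 of the 10 single-library omissions ended, as did the merged controls (0.203). SRC itself had 3.25 to 3.63 TPM on average in the lines, against 3.41 TPM in control.

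Genes downstream of ETV1 and ERK, the kinase through which KIT stabilises the ETV1 protein, were counted by line too. Of 13 tested, InsE had 5 higher and 1 lower, InsF 1 and 6, InsG 2 and 6, and InsH 1 and 6. Over all genes, in that order of lines, 10.8%, 10.9%, 9.86% and 8.95% were higher and 12.4%, 11.3%, 10.5% and 9.46% lower. The difference between lines was tested gene by gene, and 7 of the 13 passed the test for any difference among the lines, against 13.2% of all genes. DUSP6, the phosphatase that switches off ERK, averaged 115 ± 1.5 TPM in InsE, 42.3 ± 0.83 TPM in InsF, 42.2 ± 2 TPM in InsG and 45.5 ± 1.7 TPM in InsH, against 106 ± 3.7 TPM in control (SD, n = 2 each). SPRY4, another feedback inhibitor, averaged 191 ± 3.7 TPM in InsE and 98.6 to 102 TPM in the other lines, against 171 ± 1.6 TPM in control. The immediate early gene EGR1 averaged 22.9 ± 2.1 TPM in InsE and 7 to 7.48 TPM in the other lines, against 15.5 ± 0.19 TPM in control. The difference among the lines passed the test for each of them (edgeR adjusted p = 1.55e-06, 2.55e-05 and 4.16e-05). DUSP5, an ERK phosphatase of the nucleus, stood at 0.33 (log2) in InsE, not called, and rose by 0.87 (InsF), 0.93 (InsG) and 0.85 (InsH). The InsE rises of DUSP6, SPRY4 and EGR1 (0.24, 0.24 and 0.55) were lost with the control libraries merged (edgeR adjusted p = 0.0877, 0.16 and 0.0673). The feedback inhibitor SPRY2 averaged 303 ± 24 TPM in InsE and 154 to 159 TPM in the other lines, against 151 ± 3.2 TPM in control (SD, n = 2 each). Its InsE change was 1.00 on the log2 scale (edgeR adjusted p = 1.02e-05), and it held with merged controls (0.000521). CCND1, the cyclin D1 gene of the step into S phase, rose by 0.48 in InsE (edgeR adjusted p = 0.000117) and fell by 0.42 (InsF), 0.22 (InsG) and 0.28 (InsH), with edgeR adjusted p of 0.000232, 0.00849 and 0.003 in the same order. With merged controls its InsG call was lost (0.0629). Both genes were named after their values were seen. KIT itself fell in all 4 lines.

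Other markers of GIST and interstitial cells showed 3 higher and 7 lower of 16 tested in the mean of the lines. Over all genes, 13.1% were higher and 14.5% lower in that comparison. ANO1 fell by 0.70 to 0.84 in the 4 lines (log2; edgeR adjusted p = 6.15e-06 for their mean), at 294 to 346 TPM on average in the lines, against 514 TPM in control. CACNA1H, a T-type calcium channel gene, fell by 1.26 in InsE (edgeR adjusted p = 0.000606) and stood at -0.43 to -0.30 in the others. NES (nestin) stood at 0.22 in InsE, not called, and rose by 0.90 (InsF), 0.74 (InsG) and 0.83 (InsH). IGFBP7 stood at 0.11 in InsE, not called, and rose by 0.55, 0.38 and 0.48 in the others.

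Of 18 listed neighbours of KIT on 4q12, 16 were in the tables and 12 were tested, of which 3 were higher and 1 was lower for the mean of the lines, where 27.6% of all genes were called. LNX1, a ubiquitin ligase gene whose start lies 957 kb before that of KIT, was low throughout, with averages of 2.62 ± 0.74 TPM in InsE, 1.83 ± 0.34 TPM in InsF, 2.76 ± 0.69 TPM in InsG and 2.66 ± 0.35 TPM in InsH, against 0.92 ± 0.18 TPM in control (SD, n = 2 each). It rose by 1.44 ± 0.18 in the mean of the lines (log2, SE; edgeR adjusted p = 0.000361). Its far end overlaps FIP1L1 on the opposite strand, so that reads there cannot be told apart without a known strand setting. CHIC2, 593 kb before KIT, rose by 0.64 ± 0.10 (0.0011). Both lie on the far side of PDGFRA from KIT. On the other side, CEP135 stood at 0.39 ± 0.09 (0.0121) and CLOCK at -0.25 ± 0.07 (0.0301), and these calls were lost without either control library and with these merged (0.0984 and 0.178). KIT was the gene of this region with the largest reduction in the mean of the lines, with RASL11B next in InsE, at -0.68.

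**Figure D4:**
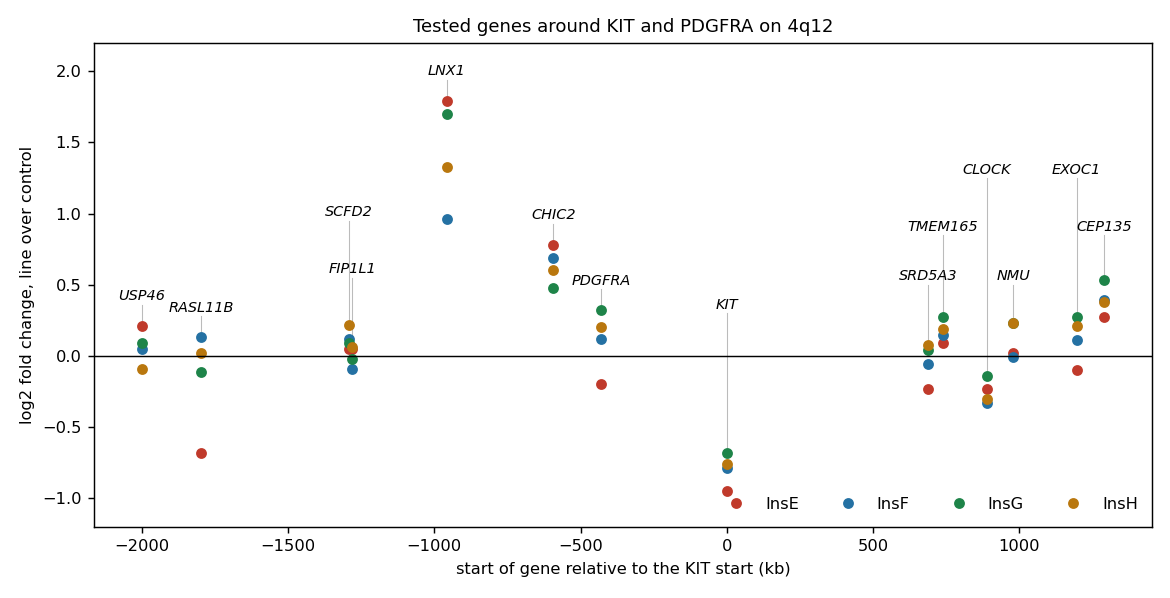
Log2 fold change of each line against control (edgeR) for the tested genes around KIT, plotted by the distance of each gene's start from that of KIT in kb. KIT lies at -0.95 to -0.68, while LNX1 and CHIC2, 957 and 593 kb before it, lie above 0 in every line.

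Genes whose pattern over the 5 groups was most like that of KIT were found by the root mean square difference of their centred mean log2 CPM, among 11163 genes. They were HMCN1 (0.025), CRYBG3 (0.046), IKZF2 (0.049), SLC38A5 (0.05) and ADCY1 (0.052), beside a spread of the KIT profile itself of 0.33. HMCN1, which encodes a large extracellular matrix protein, had log2 changes against control of -0.92 (InsE), -0.73 (InsF), -0.68 (InsG) and -0.72 (InsH). The nearest to PROM1 was RRM2 (0.017), to PRKCQ TSPAN5 (0.029), to FOXF1 MRAS (0.021), to KITLG COL4A1 (0.058), to PDGFRA SSX2IP (0.029), to ETV1 FEM1C (0.018), to HAND1 SYT5 (0.026) and to BARX1 LBX2-AS1 (0.033). Among the 9 genes themselves, KIT lay closest to PRKCQ (0.15) and PROM1 (0.17), and KITLG and FOXF1 were farthest apart (0.59). These names describe the pattern only.

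The length estimates show where TPM and counts differ. FOXF1 and HAND1 have a fixed length of 3516 and 1738 bases in all libraries. For KIT the weighted length was 4938 to 5096 bases in the lines and 4993 and 4999 bases in control. PROM1 was 3457 to 3860 bases in the lines, with replicate 1 the longer in each group, against 3605 and 3527 bases in control. No sequence of a transcript variant was measured directly.

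**Figure D5:**
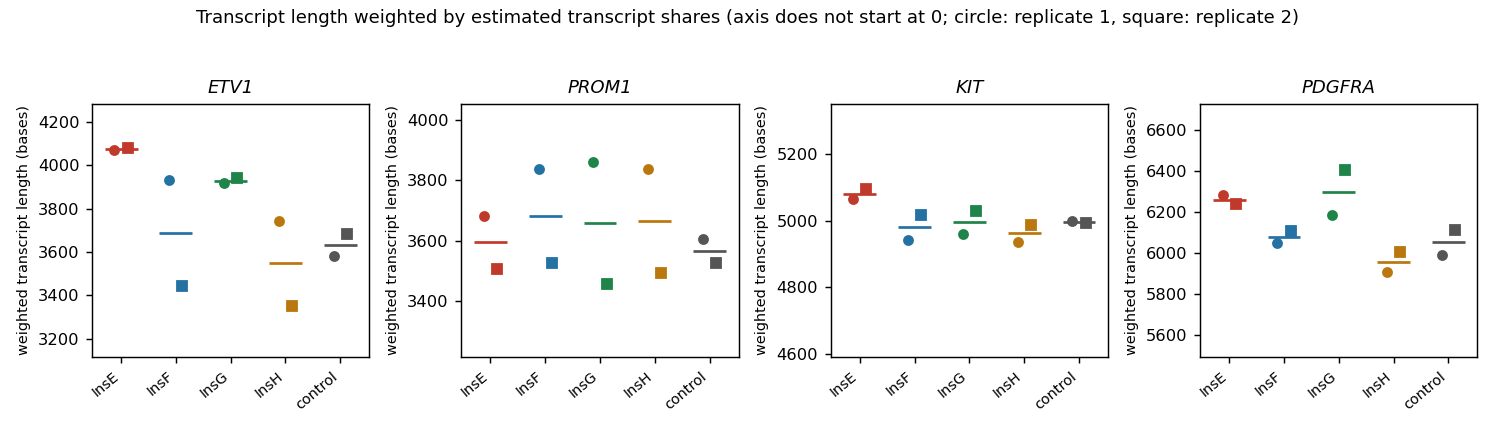
Transcript length in bases, weighted by RSEM's isoform shares, for ETV1, PROM1, KIT and PDGFRA in every library (circles, replicate 1; squares, replicate 2; lines, group means; axes do not start at 0). ETV1 is longest in InsE, at 4071 and 4078 bases, against 3583 and 3683 bases in control.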

How the data were processed

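Polyadenylated RNA of 10 libraries was sequenced after NEBNext Ultra II preparation, per the labels' protocols. The authors deposited expected counts, RSEM's estimates of fragments per gene that are not normalised between libraries, and TPM, which sum to one fixed total per library and so carry no depth. STAR 2.5.3, RSEM 1.3.2, DESeq2 1.38.3 and hg38 are named in the submitters' processing notes. Annotation release and strand setting: not given in the sources used here. Positions came from GENCODE 29, and genes overlapping KITLG, PDGFRA and PROM1 averaged at most 0.0432 CPM. A series table with 10 value columns that did not match the labels was not used.

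Expected counts were rounded and tested with edgeR 4.0.16 (robust quasi-likelihood, TMM, minimum count of 10, 15554 genes) in R 4.3.3, with all libraries in 1 fit (5 residual degrees of freedom), with two-sided p adjusted by Benjamini-Hochberg over all tested genes (threshold 0.05). A log2 fold change divided by the square root of F gave the SE. Alternatives used DESeq2 1.42.0, limma 3.58.1 on log2(TPM + 1) and log2(TPM + 0.1), other scaling, no filter, a replicate block, single libraries left out and, added later, merged control libraries. The pipeline was tested on simulated data. Beside the 9 genes and ANO1, up to 4 called genes with the largest change per list were named (the 2 highest where none was called), and the 5 genes (KIT) or 3 genes (others) with the nearest profile were found, of which the text prints part. SRC, HAND2, KDR, RASL11B, SPRY2 and CCND1 were named after their values were seen. The genes and lists were chosen with earlier results of these data known.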

Additional observations from a re-analysis of the deposited data

Results flagged for a closer look

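For 5 of the 9 genes the 4 lines differed among themselves in their change against control, by edgeR's test for any difference among the lines, which 13.2% of all genes passed. The adjusted p was 0.00111 for PDGFRA, 0.00376 for KITLG, 0.00624 for BARX1, 0.00627 for HAND1 and 0.00701 for PROM1. In each of them InsE lay lowest. Of these calls, 3 rest on 1 library of InsE: HAND1 had 0.0698 and BARX1 0.0615 without InsE replicate 1, and PROM1 had 0.0826 without InsE replicate 2.

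Among the other named genes, the lines differed for DUSP6 (edgeR adjusted p = 1.55e-06), SPRY4 (2.55e-05) and EGR1 (4.16e-05), which were low in InsF, InsG and InsH, and for DUSP5 (0.0186), NES (0.0191), IGFBP7 (0.00155) and PDGFRB (0.0103), whose changes were smallest in InsE. PRKCA (0.00261) was highest in InsF, and CACNA1H (0.0144) was lowest in InsE.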

How the results depend on the processing

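Of the alternative values computed for the changes of the 9 genes against control, 755 kept their direction and side of the threshold, 27 newly passed it, 49 no longer passed it and 15 changed sign. KIT against control kept all of its calls in each alternative. The sign changes were all of values near 0 that were never called: KITLG in the mean of the lines (0.01) was 0.00 in DESeq2 and without the expression filter and ran from -0.04 to 0.05 with 1 library left out; ETV1 in InsG (0.03) was -0.01 on both TPM scales and -0.06 to 0.10 with 1 library left out; HAND1 in InsG (-0.07) was 0.03 on both TPM scales and -0.14 to 0.01 with 1 left out; HAND1 in InsH was 0.00 to 0.11 with 1 left out; and BARX1 in InsH was 0.00 with library sizes alone. The cause was not tested.

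Of the 9 genes, limma on log2(TPM + 1) and on log2(TPM + 0.1), and the merged control libraries, each called 3 in InsG and 3 in InsH, and DESeq2 called 3 in InsH, where 5 were called in the main fit. In InsE, where the main fit called 8, library sizes alone called 6 and limma on both TPM scales called 7. The fits without the filter and with the replicate block called 9 there. Fewer than 8 were called in InsE without either of its own libraries, without either control library and with these merged. For any difference among the lines, 8 were called by DESeq2 and without the filter, against 5. With 1 library left out the counts were 3 to 5 in InsG, 2 to 5 in InsH and 3 to 6 among the lines.

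Counts over all genes, in the order InsE, InsF, InsG, InsH against control and the mean of the lines, were 3611, 3461, 3163, 2863 and 4296 in the main fit. They were 1791, 1661, 1329, 1367 and 2236 with limma on log2(TPM + 1), 1804, 1671, 1333, 1375 and 2238 on log2(TPM + 0.1), and 1672, 1624, 1238, 1191 and 1709 with merged control libraries. DESeq2 called 2180, 2030, 1832 and 2857 in InsF, InsG, InsH and the mean. With 1 library left out they ran from 1405 to 3574, 1453 to 3416, 1181 to 3166, 1112 to 2880 and 1496 to 4338, lowest without a control library. For any difference among the lines (2055), the count was 3660 without the filter, 984 and 979 with limma on both TPM scales, 1308 with only the lines fitted, 1295 with merged controls and 729 to 1903 with 1 library left out. For InsE against the other lines (3762) it was 2433 in DESeq2 and 1971 to 3537 with 1 left out. The share of calls that were higher was 46.4%, 49.1%, 48.5% and 48.6% in the lines and 47.5% in their mean, against 60.2%, 62.3%, 64.3%, 64.8% and 62.3% with library sizes alone, and 42.2%, 69.5%, 67.5%, 70.5% and 64.2% with limma on log2(TPM + 1). For InsE against the other lines it was 47.2%, against 23.7% with limma on log2(TPM + 1).

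The groups share replicate numbers, and replicate 1 was the deeper library in each. Deviations of same-numbered libraries correlated at 0.60 to 0.66 between lines and at 0.02 to 0.07 between lines and control, over 12080 genes, and the labels do not say that a number marks a shared culture or day. With the replicate number as a block, 5935, 5886, 5769, 5317 and 6679 genes were called in the 4 lines and their mean, 5442 among the lines and 5942 for InsE against the others. Of the 9 genes the block called 8 in InsF, 8 in the mean and 8 among the lines. KIT among the lines then passed (edgeR adjusted p = 5.05e-05), as did FOXF1 in InsE (0.00322) and KITLG in InsF (0.00409) and InsG (0.0169).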
